A study of Homo sapiens with 6 samples.

Results

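Genes of the G1/S transition and of DNA replication were followed in MCF10A cells, a human mammary epithelial line that is immortal but not transformed, after knockdown of PDCD4, an RNA-binding tumour suppressor protein. The members were listed by what they do in the cell. The set holds 49 genes, of which 48 were found in the transcript tables and all 48 entered the test, out of 13047 genes tested and 34486 genes summed. The remaining listed gene, E2F2, was not analysed here. Total RNA was sequenced in 6 libraries, 3 from cells given siRNA against PDCD4 (siPDCD4) and 3 from cells given a control siRNA (siCT). Both groups were the same line, reverse-transfected with 10 nM siRNA, with new medium after 6 h and harvest at 48 h. The paper's general methods also state that growth medium was renewed some hours before MCF10A cells were collected. The growth medium of both groups was DMEM/F12 with 5% horse serum, 20 ng/ml EGF, 10 µg/ml insulin, hydrocortisone and cholera toxin. The cells were thus sampled in full growth factors and not after starvation or a synchronised release. One siRNA reagent against PDCD4 was used, the sequence of the control is not stated in the sources used here, and the RNA libraries hold no second reagent and no rescue. No label says whether the 3 libraries of a group were grown as separate cultures. The p-values below cover the variation among these libraries only, and that variation may be technical.

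A cell commits to division late in G1, when cyclin D and cyclin E kinases phosphorylate the retinoblastoma protein and release the E2F transcription factors. E2F then drives a broad programme of genes for S phase, among them the licensing factors that load the MCM2-7 helicase on origins, the proteins that start and run the fork, the enzymes that make deoxynucleotides and the factors that rebuild chromatin behind the fork. These messages oscillate through the cell cycle, and in an unsynchronised culture their level follows both the share of cells in S phase and the amount of message per cell. The libraries are bulk RNA, and fewer cells in S phase and less RNA per cell cannot be told apart in them.

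PDCD4 itself (ENSG00000150593) had 9.13, 7.45 and 8.66 CPM (estimated counts per 1000000 of the scaled library size, corrected for the gene's average transcript length in that library) in siPDCD4 cells, against 89.5, 88.7 and 61.9 CPM in siCT cells, so every knockdown library lay far below every control library. Its log2 fold change was -3.25 ± 0.17 (SE, edgeR quasi-likelihood test, adjusted p = 4.05e-05), where a log2 fold change is siPDCD4 over siCT throughout. Totals of estimated counts ran between 15547679 and 18619778 in siPDCD4 libraries and between 13410441 and 21828931 in siCT libraries. Across all genes, 56 of 13047 (0.429%) passed an FDR of 5%, 22 higher (0.169%) and 34 lower (0.261%) in siPDCD4 cells. The basal epithelial markers of MCF10A were present, with KRT5 at 1926 to 2606 CPM in siPDCD4 cells and 2189 to 2581 CPM in siCT cells. None of the 9 epithelial markers passed the FDR. Groups did not overlap for TP63, at 0.36 ± 0.09 (log2 fold change, SE, edgeR adjusted p = 0.161), and KRT6A, at -0.29 ± 0.09 (edgeR adjusted p = 0.304), and EPCAM was at 0.47 ± 0.16 (edgeR adjusted p = 0.368). The luminal oestrogen receptor gene ESR1 had 3 to 11 counts and PGR none in any library, and the lymphocyte gene CD3E was at 0 counts in all 6. The leukocyte gene PTPRC had 2 to 8.3 counts, and CD68, a lysosomal gene high in macrophages, 7.48 to 9.11 CPM in siPDCD4 cells and 7.43 to 10.4 CPM in siCT cells. The endothelial gene PECAM1 had 1.18, 2.02 and 4.31 CPM in siPDCD4 cells, against 1.01, 0.98 and 1.02 CPM in siCT cells (edgeR adjusted p = 0.41), while CDH5 had at most 1 count and VWF at most 2. Of the fibroblast genes, COL1A2 had at most 3 counts and PDGFRB 1 to 10 counts. The fibroblast gene COL1A1 had enough counts to enter the test. What part these cells or genes have in the members' values was not tested.

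Before any comparison of groups, the 2 libraries numbered 3 stood apart for these genes. The median member lay 0.11 below its own mean over the 6 libraries on the log2 scale in siPDCD4_3 and 0.11 below it in siCT_3. In the other libraries the median deviation was 0.07 in siPDCD4_1, 0.08 in siPDCD4_2, 0.03 in siCT_1 and 0.01 in siCT_2. Scaling holds the same medians over all tested genes near 0, here within 0.0075, so each deviation is relative to the typical gene. The number of members below their own mean was 40 of 48 in siPDCD4_3 and 41 of 48 in siCT_3, against 6 to 22 of 48 in the other 4. Each of these 2 libraries was the lowest of the 6 for 18 members. The first principal component of the members, with 39.96% of their variance, placed siPDCD4_3 at 0.82 and siCT_3 at 1.06, and the other 4 libraries between -0.60 and -0.19, so the main axis among these genes did not separate the siRNAs. The labels give no batch, and the siCT library had the smallest depth of the 6 while the siPDCD4 library did not.

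**Figure D1:**
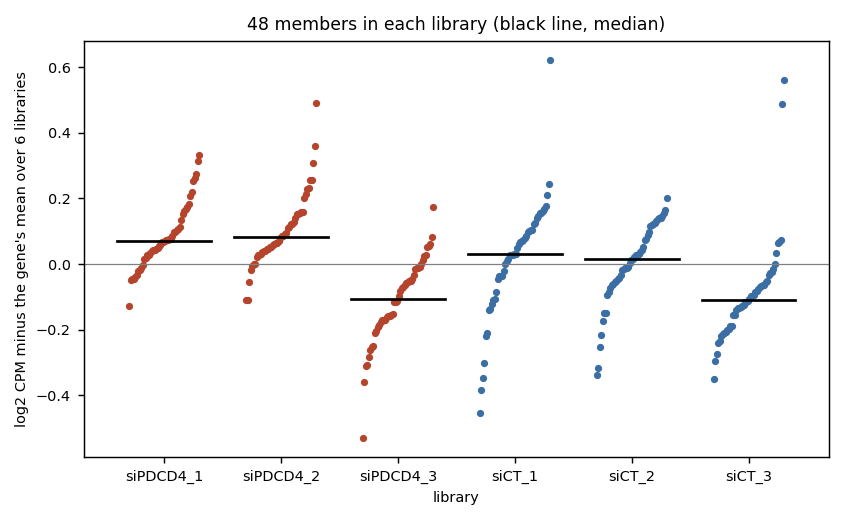
Deviation of the 48 members from their own mean in each library. Each point is 1 member, the vertical axis is log2 CPM minus the mean of that gene over the 6 libraries, and black lines are medians, which lie at -0.11 in siPDCD4_3 and siCT_3 and between 0.01 and 0.08 in the other 4.

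No member passed the FDR of 5% in either direction (0 of 48, against 0.429% of all genes). The smallest adjusted p among them was 0.263, for E2F1. At an unadjusted p under 0.05 there were 2 members, E2F1 and CCNE2, both higher in siPDCD4 cells, against 8.82% of all genes. DESeq2 and limma-voom also called 0 members. Of the 48, 32 had a log2 fold change above 0 and 16 below, that is 66.7% above 0 against 49.4% of all genes. Their median was 0.04 against -0.0024 for all genes. The count above 0 depended on single libraries. With 1 library left out it ran from 25 of 48 (without siCT_3) to 39 of 48 (without siPDCD4_3). The estimates ran from -0.19 for DSCC1 to 0.40 for CDT1.

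The intervals say how large a change could have gone unseen. The 95% confidence interval of the log2 fold change lay within ±1 for 48 of 48 members, which held for 84.0% of all genes, and within ±0.5 for 41 of 48, against 57.0% of all genes. The 7 with an interval that reached past 0.5 were CDT1, GINS4, POLD1, POLE, LIG1, E2F1 and E2F8. The interval of LIG1 is that of a sum held almost wholly by the transcript LIG1-233, described below. It sets no bound for LIG1 mRNA. The median biological coefficient of variation was 0.103 for the members and 0.125 for all genes, and the median CPM was 48.97 for the members and 25.2 for all genes, so these messages were measured somewhat more tightly than the typical gene.

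**Figure D2:**
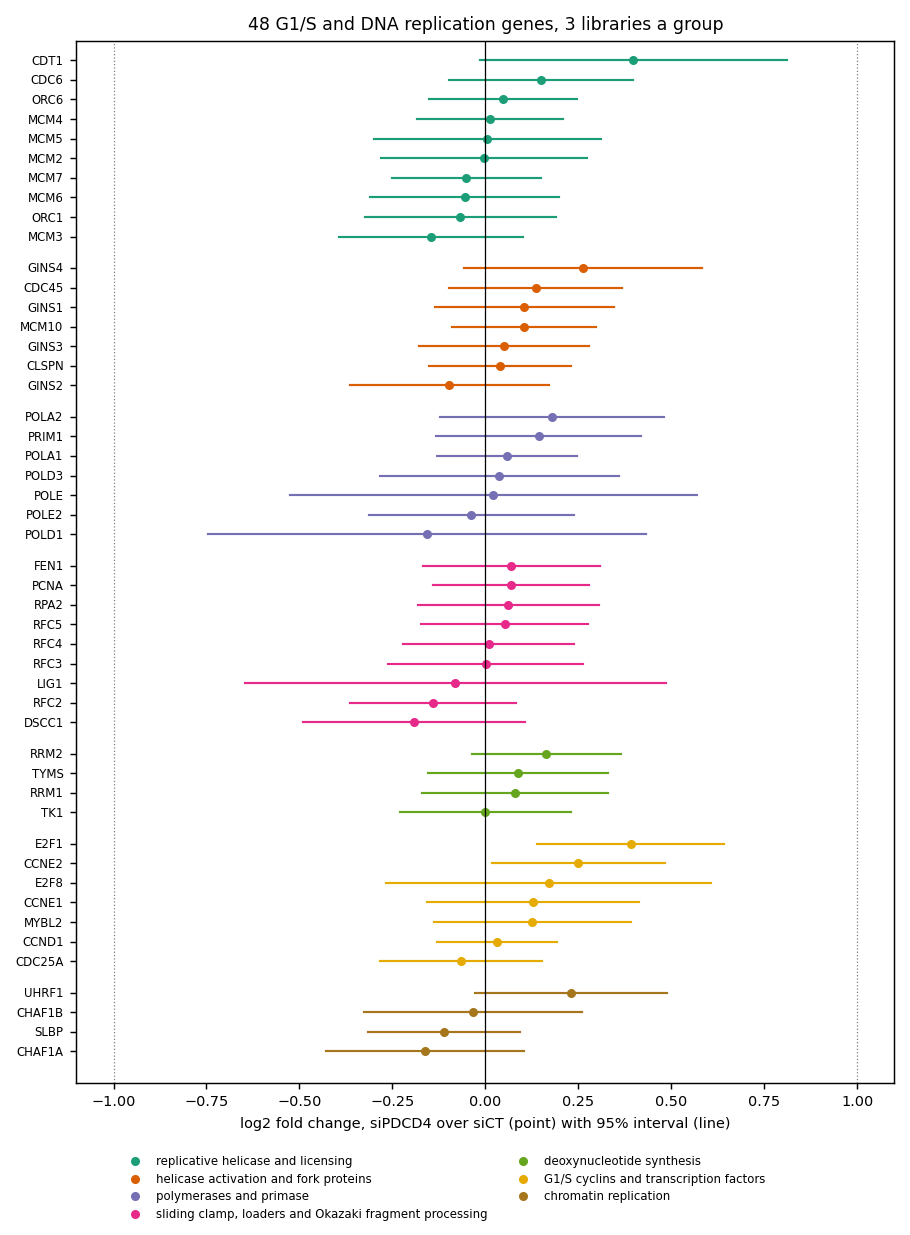
Log2 fold change of siPDCD4 over siCT for the 48 members, grouped by role (colour). Points are estimates and lines are 95% confidence intervals from the edgeR fit with 3 libraries a group. All 48 lines lie between the dotted marks at -1 and 1, and only those of E2F1 and CCNE2 do not cross 0. LIG1 is shown as its gene sum, which is not a level of LIG1 mRNA.

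The cyclins and transcription factors of the transition held the 2 members with the smallest p. E2F1 (ENSG00000101412, chr20:33675477-33686385, minus strand), the founding activator of the E2F family and itself an E2F target, had 26.5, 26.4 and 23.0 CPM in siPDCD4 cells, against 19.08, 18.99 and 19.82 CPM in siCT cells. All 3 knockdown libraries were above all 3 controls, with siPDCD4_3 the lowest of its group. The log2 fold change was 0.39 ± 0.11 (SE, 95% interval 0.14 to 0.64, edgeR unadjusted p = 0.006, adjusted p = 0.263), and it stayed between 0.35 and 0.46 when each library was left out in turn. E2F1 has 1 listed transcript, so no split of reads among its transcripts enters this value.

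CCNE2 (chr8:94879770-94896678, minus strand) encodes cyclin E2, a partner of CDK2 at the end of G1. It had 37.0, 33.5 and 37.1 CPM in siPDCD4 cells, against 28.2, 29.6 and 32.9 CPM in siCT cells, and the groups again did not overlap. The log2 fold change was 0.25 ± 0.10 (SE, 95% interval 0.02 to 0.48, edgeR unadjusted p = 0.038, adjusted p = 0.517). This gene depended on a correction that the fit makes for the average length of the transcripts a gene is read from. In siCT_3 the estimated length of CCNE2 was 0.31 below its mean on the log2 scale, which raised the corrected level there. Without the length correction the log2 fold change was 0.42 with an adjusted p of 0.0338 in edgeR, and CCNE2 was then the only member called. CCNE2 overlaps NDUFAF6 by 1146 bases and INTS8 by 1977 bases, both on the opposite strand. Whether the authors' quantification used strand is not stated in the sources at hand.

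**Figure D3:**
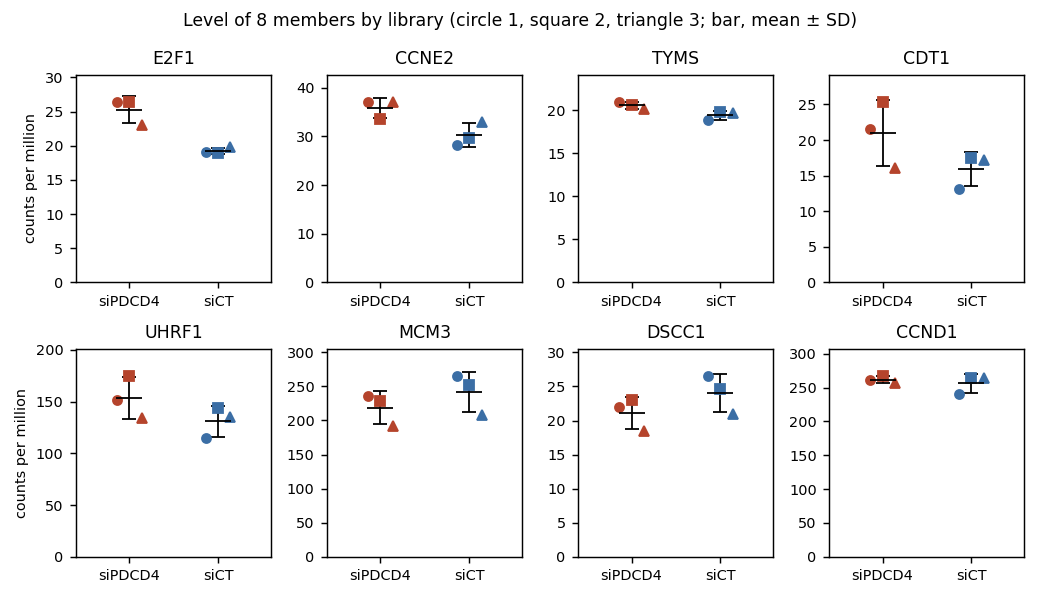
Level of 8 members in each library, in CPM on axes that start at 0, with siPDCD4 left of siCT. Symbols are libraries 1 (circle), 2 (square) and 3 (triangle), bars are the mean ± SD of 3; the groups do not overlap for E2F1, CCNE2 and TYMS and overlap for CDT1, UHRF1, MCM3, DSCC1 and CCND1.

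The other genes of this role differed by less than their spread. CCND1, cyclin D1, which carries growth factor signals to CDK4 and CDK6, was one of the most tightly measured members. It had 262, 267 and 257 CPM in siPDCD4 cells, against 240, 264 and 265 CPM in siCT cells. Its log2 fold change was 0.03 ± 0.07 (SE), with a 95% interval from -0.13 to 0.19, the narrowest of the 48. CCNE1, cyclin E1, had 18.6, 21.0 and 17.3 CPM in siPDCD4 cells and 18.2, 16.1 and 17.8 CPM in siCT cells, with the groups overlapping. CDC25A, the phosphatase that removes the inhibitory phosphate from CDK2, was at -0.06 ± 0.10 (log2 fold change, SE). MYBL2, a transcription factor induced by E2F late in G1, was at 0.13 ± 0.12. E2F8, an atypical E2F that represses E2F targets, was the scarcest member, with a mean of 6.67 CPM, and was at 0.17 ± 0.20. In all, 6 of the 7 genes tested in this role had estimates above 0 and the median was 0.13.

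Groups that did not overlap occurred for 3 of 48 members in the higher direction, E2F1, CCNE2 and TYMS, and for 0 in the lower direction. Over all genes this held for 7.03% in the higher direction and 7.13% in the lower. The 3 members are thus about the share found among all genes.

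Promoter sequences of 4 members are given because E2F sites are the feature that many of these genes are known to share. E2F1 and CDT1 have the largest estimates, TYMS is another member whose groups did not overlap, and MCM3 has the lowest estimate of the helicase subunits. Each is the 300 bases that run from 250 before to 50 after the RefSeq start (GRCh38.p14), read 5′ to 3′ on the strand of the gene. Capitals mark matches to the E2F core in either orientation.
E2F1 promoter (chr20:33686336-33686635, minus strand): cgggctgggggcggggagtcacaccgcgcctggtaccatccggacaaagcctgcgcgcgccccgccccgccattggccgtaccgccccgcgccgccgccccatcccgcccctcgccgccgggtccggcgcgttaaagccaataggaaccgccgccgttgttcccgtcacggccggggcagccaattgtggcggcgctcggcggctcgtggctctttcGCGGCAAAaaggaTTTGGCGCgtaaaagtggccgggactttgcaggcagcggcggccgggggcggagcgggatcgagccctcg
CDT1 promoter (chr16:88803539-88803838, plus strand): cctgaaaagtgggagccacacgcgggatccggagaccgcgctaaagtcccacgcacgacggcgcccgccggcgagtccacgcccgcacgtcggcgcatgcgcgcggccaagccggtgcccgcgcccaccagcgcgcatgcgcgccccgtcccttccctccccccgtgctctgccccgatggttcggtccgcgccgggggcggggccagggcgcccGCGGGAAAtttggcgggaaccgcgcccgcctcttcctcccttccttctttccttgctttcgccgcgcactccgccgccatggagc
TYMS promoter (chr18:657403-657702, plus strand): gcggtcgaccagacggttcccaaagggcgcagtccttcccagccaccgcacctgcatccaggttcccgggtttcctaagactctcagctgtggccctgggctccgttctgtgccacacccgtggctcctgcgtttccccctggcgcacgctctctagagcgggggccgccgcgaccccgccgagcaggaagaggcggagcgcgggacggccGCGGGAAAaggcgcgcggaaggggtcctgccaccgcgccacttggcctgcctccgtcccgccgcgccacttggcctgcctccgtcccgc
MCM3 promoter (chr6:52284693-52284992, minus strand): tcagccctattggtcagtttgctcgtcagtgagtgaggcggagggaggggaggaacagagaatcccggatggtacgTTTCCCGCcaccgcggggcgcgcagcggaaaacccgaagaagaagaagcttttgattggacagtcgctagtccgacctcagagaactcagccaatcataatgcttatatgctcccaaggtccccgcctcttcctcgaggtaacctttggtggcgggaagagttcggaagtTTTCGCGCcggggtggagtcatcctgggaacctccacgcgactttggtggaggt

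The core was searched as TTTCCCGC, TTTGGCGC, TTTCGCGC and TTTGCCGC on both strands, and matches that overlap each other were counted apart. A promoter was in the RefSeq table for 39 of the 48 members, and 21 of these 39 (53.8%) held at least 1 match. The same letters were found in 5.49% of 10145 promoters of protein-coding genes that were tested, and in 3.33% of all 27305 promoters of this length in the table. E2F1 and MCM3 had 2 matches each, CDT1 and TYMS had 1 each, and MCM6 had 4. The letters CCAAT, on either strand, were in 22 of the 39 (56.4%), against 37.2% of the promoters of tested genes and 35.7% of all promoters. The letters GGGCGG were in 30 of the 39 (76.9%), against 69.7% of the promoters of tested genes and 44.6% of all. The median log2 fold change was 0.04 over the 21 members with a match to the E2F core and 0.05 over the 18 without. It was 0.05 over the 22 with CCAAT and 0.0012 over the 17 without, and 0.02 over the 30 with GGGCGG and 0.09 over the 9 without.

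Licensing factors and the helicase came next. MCM2 to MCM7 form the ring that is loaded at origins in G1 and later unwinds DNA at the fork, and their 6 estimates ran from -0.15 for MCM3 to 0.01 for MCM4. MCM7 had 298, 291 and 251 CPM in siPDCD4 cells, against 302, 302 and 266 CPM in siCT cells, so library 3 was the lowest in both groups. Its log2 fold change was -0.05 ± 0.09 (SE). MCM3 had 236, 229 and 191 CPM in siPDCD4 cells and 265, 252 and 209 CPM in siCT cells, again lowest in library 3 of each group, with overlapping groups. This came to -0.15 ± 0.11 (log2 fold change, SE, edgeR adjusted p = 0.837).

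CDT1, which brings the MCM ring to the origin recognition complex and is destroyed in S phase, had the largest estimate of the 48. It had 21.5, 25.4 and 16.0 CPM in siPDCD4 cells, against 13.2, 17.4 and 17.2 CPM in siCT cells. The groups overlapped, since siPDCD4_3 lay below 2 of the controls. The log2 fold change was 0.40 ± 0.18 (SE, 95% interval -0.01 to 0.81, edgeR adjusted p = 0.59), and it moved between 0.24 and 0.56 when single libraries were left out. CDC6, the loader that works beside CDT1, had 101, 97.2 and 77.9 CPM in siPDCD4 cells and 85.8, 87.2 and 75.9 CPM in siCT cells, a log2 fold change of 0.15 ± 0.11 (SE). ORC1 and ORC6, subunits of the origin recognition complex, were at -0.07 and 0.05. Of the 10 genes of this role 5 had estimates above 0 and 5 below, with a median of 0.0012.

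The proteins that switch the loaded helicase on had mostly small positive estimates. CDC45 and the 4 GINS subunits join MCM2-7 to make the active helicase, MCM10 is needed for its firing, and CLSPN, claspin, couples the fork to the checkpoint kinases. GINS4 had 34.96, 39.52 and 27.75 CPM in siPDCD4 cells, against 31.5, 27.8 and 25.5 CPM in siCT cells. The groups overlapped, and its log2 fold change was 0.26 ± 0.14 (SE, edgeR adjusted p = 0.703), or 0.14 without the length correction. GINS2, in the same complex, had 45.7, 45.6 and 36.9 CPM in siPDCD4 cells and 48.0, 48.7 and 40.2 CPM in siCT cells, a log2 fold change of -0.10 ± 0.12 (SE). CDC45 had 46.4, 53.3 and 43.7 CPM in siPDCD4 cells and 46.0, 42.8 and 41.5 CPM in siCT cells, a log2 fold change of 0.14 ± 0.10 (SE). GINS1, GINS3, MCM10 and CLSPN lay between 0.04 and 0.11. In this role 6 of 7 estimates were above 0, with a median of 0.10.

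Among the polymerases and primase, 5 of 7 estimates were above 0 and the median was 0.04. POLA2 and PRIM1, of the polymerase alpha-primase that lays down the first primer, were at 0.18 ± 0.14 and 0.14 ± 0.12 (log2 fold change, SE). POLA2 had 36.8, 27.4 and 30.7 CPM in siPDCD4 cells and 31.2, 27.7 and 25.0 CPM in siCT cells, so the groups overlapped. POLA2 shares 44032 bases with another annotated protein-coding gene on the same strand, and PRIM1 shares 11098 bases with another. What these overlaps do to the estimated counts was not tested. POLA1, the catalytic subunit of the same enzyme, was at 0.06 ± 0.08. POLD3 and POLE2, accessory subunits of polymerases delta and epsilon, were at 0.04 and -0.04.

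The catalytic subunits of the 2 replicative polymerases were among the least certain members. POLE, which copies the leading strand, had 75.3, 81.8 and 82.4 CPM in siPDCD4 cells, against 61.2, 62.5 and 114.9 CPM in siCT cells. The siCT_3 value stood far above the other 2 controls, and in that library the estimated transcript length of POLE was 0.36 below its mean on the log2 scale. The estimated counts before correction were 1358, 1351 and 1092 in siCT_1, siCT_2 and siCT_3. POLE was at 0.02 ± 0.23 (log2 fold change, SE), and without siCT_3 it was at 0.37 with an adjusted p of 0.157 in edgeR. POLD1, which works on the lagging strand, had 42.5, 49.6 and 28.7 CPM in siPDCD4 cells, against 31.8, 45.6 and 58.2 CPM in siCT cells. It was at -0.16 ± 0.25 with the length correction and at 0.16 without it, so its direction was not fixed.

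At the sliding clamp, 6 of 9 estimates were above 0 and the median was 0.0094, with LIG1 counted among the 3 below 0. PCNA, the ring that holds the polymerases on DNA and the usual marker of S phase cells, had 215, 223 and 194 CPM in siPDCD4 cells, against 217, 207 and 178 CPM in siCT cells. The difference was 0.07 ± 0.09 (log2 fold change, SE), and library 3 was again the lowest of each group. RFC2 to RFC5, subunits of the clamp loader, ran from -0.14 for RFC2 to 0.05 for RFC5. RFC2 had 46.4, 44.1 and 40.7 CPM in siPDCD4 cells and 51.0, 49.6 and 43.8 CPM in siCT cells, with overlapping groups. DSCC1, part of an alternative clamp loader used in sister chromatid cohesion, had the lowest estimate of all members. It had 21.9, 23.0 and 18.4 CPM in siPDCD4 cells, against 26.5, 24.6 and 21.0 CPM in siCT cells, a log2 fold change of -0.19 ± 0.13 (SE, edgeR adjusted p = 0.814). RPA2, of the single-strand binding complex, and FEN1, the nuclease that trims Okazaki fragments, were at 0.06 and 0.07.

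LIG1, the ligase that seals Okazaki fragments, has to be read apart from the rest. Its summed level was 7206, 8352 and 8008 CPM in siPDCD4 cells, against 12131, 6615 and 6175 CPM in siCT cells, far above every other member. Nearly all of this came from LIG1-233, a transcript annotated for nonsense-mediated decay, which took between 99.8% and 99.9% of the gene's estimated counts in each library. LIG1-233 held 128548, 118872 and 128449 estimated counts in siPDCD4_1, siPDCD4_2 and siPDCD4_3, against 253092, 116026 and 75202 in siCT_1, siCT_2 and siCT_3. The other 35 LIG1 transcripts together held 214, 205 and 174 in siPDCD4 libraries, against 223, 178 and 154 in siCT libraries. Protein-coding transcripts held 0.0523% of the gene's counts.

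**Figure D4:**
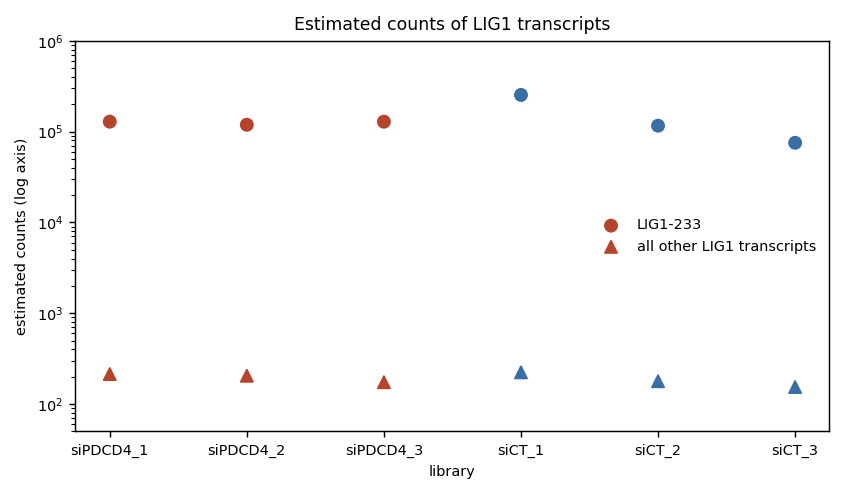
Estimated counts of LIG1 in each library on a log axis. Circles are the transcript LIG1-233 and triangles all other LIG1 transcripts together, which lie between 154 and 223 in every library while LIG1-233 lies between 75202 and 253092.

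The LIG1 sum is given as a value of the tables and not as a level of LIG1 mRNA. Its log2 fold change was -0.08 ± 0.24 (SE) with LIG1-233 and 0.16 without it, and it was 0.30 with siCT_1 left out. With the LIG1-233 reads left out, 33 of the 48 members had estimates above 0, against 32 with them. The share of a library's counts held by the other 47 members was 0.404%, 0.389% and 0.350% in siPDCD4_1, siPDCD4_2 and siPDCD4_3, against 0.389%, 0.387% and 0.333% in siCT_1, siCT_2 and siCT_3. Library 3 was the lowest of each group in this sum as well, and the groups overlapped.

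For deoxynucleotide synthesis, 3 of 4 estimates were above 0 and the median was 0.08. RRM2, the S phase subunit of ribonucleotide reductase, had 219, 196 and 188 CPM in siPDCD4 cells, against 193, 181 and 163 CPM in siCT cells. The estimate was 0.16 ± 0.09 (log2 fold change, SE, edgeR adjusted p = 0.703), with siPDCD4_3 below siCT_1. RRM1, the subunit present through the cycle, was at 0.08 ± 0.11. TYMS, thymidylate synthase, had 21.0, 20.6 and 20.2 CPM in siPDCD4 cells, against 18.8, 19.7 and 19.6 CPM in siCT cells. The groups did not overlap, but the gap was small, with a log2 fold change of 0.09 ± 0.11 (SE, edgeR adjusted p = 0.935). The gene overlaps ENOSF1 on the opposite strand, and whether the authors' quantification used strand is not stated in the sources at hand. In all, 14 of the 48 members overlap another protein-coding gene, 10 of them on the opposite strand. TK1, the thymidine kinase of S phase, had 45.2, 50.3 and 40.6 CPM in siPDCD4 cells and 46.1, 46.2 and 43.7 CPM in siCT cells, and its estimate of -0.00011 ± 0.10 (SE) changed sign with small changes of the settings.

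In the genes for chromatin replication, 1 estimate was above 0 and 3 below, with a median of -0.07. UHRF1, which brings the maintenance methyltransferase DNMT1 to newly copied DNA, had 152, 175 and 134 CPM in siPDCD4 cells, against 115, 144 and 135 CPM in siCT cells. The groups overlapped and the log2 fold change was 0.23 ± 0.12 (SE, edgeR adjusted p = 0.65). CHAF1A, the large subunit of the histone chaperone CAF-1, had 51.2, 51.8 and 38.8 CPM in siPDCD4 cells, against 55.0, 51.6 and 52.0 CPM in siCT cells. Only siPDCD4_3 stood clearly below. The log2 fold change was -0.16 ± 0.12 (SE), and -0.04 without that library. CHAF1B, of the same chaperone, was at -0.03 ± 0.13, and SLBP, which binds the stem-loop of histone messages, was at -0.11 ± 0.09.

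Levels can be compared between genes only per length, and for this the authors' TPM values were summed per gene, with LIG1 left out for the reason above. PCNA was the highest member, at 175 ± 14.1 TPM in siPDCD4 cells and 165 ± 21.4 TPM in siCT cells (SD, n = 3 each). MCM7 followed at 122 ± 12.2 TPM in siPDCD4 cells and 125 ± 13.5 TPM in siCT cells, and then MCM4 at 87.9 ± 4.31 TPM in siPDCD4 cells and 85.9 ± 9.89 TPM in siCT cells. RRM2 at 85.6 ± 7.75 TPM in siPDCD4 cells and 75.4 ± 8.07 TPM in siCT cells did not differ from MCM4 beyond the spread. At the other end, E2F1 had 9.13 ± 0.805 TPM in siPDCD4 cells and 6.87 ± 0.199 TPM in siCT cells, and CDT1 8.49 ± 1.95 TPM in siPDCD4 cells and 6.37 ± 1.08 TPM in siCT cells. The lowest was E2F8, at 1.97 ± 0.19 TPM in siPDCD4 cells and 1.72 ± 0.277 TPM in siCT cells.

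Subunits of 1 complex were not always at 1 level. Over all 6 libraries the mean TPM of the 4 GINS subunits differed by at most 1.25 times, between GINS2 and GINS1, and that of RRM2 was 1.24 times that of RRM1. RFC2 to RFC5 differed by up to 1.74 times. The MCM ring holds its 6 subunits in equal number, but the mean TPM of MCM7 was 5.37 times that of MCM6, at 123.6 ± 11.6 against 23.0 ± 2.91 TPM (SD, n = 6). Such values rest on the transcript lengths of the annotation.

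**Figure D5:**
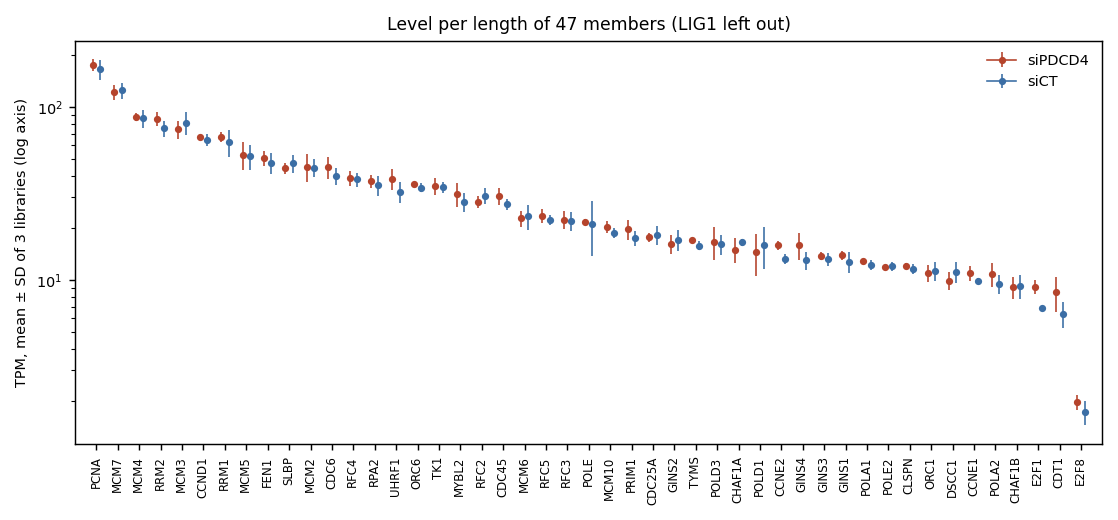
Level per length of 47 members, ordered by their mean over 6 libraries, on a log axis. Points are the mean TPM of 3 libraries and bars the SD, with siPDCD4 left of siCT for each gene; PCNA is the highest and E2F8 the lowest, and the bars of the groups overlap for most genes.

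The transcripts of these genes were tested one by one as well. Of 47375 transcripts tested, 0 (0%) passed the FDR of 5% in edgeR, with 1531 at an unadjusted p under 0.05. The members had 187 of these transcripts, 10 of them at an unadjusted p under 0.05 and none past the FDR, the smallest adjusted p being 0.297. For 43 of the 48 members the transcript with most reads was the one the annotation marks as canonical, and for 18 it held over 90% of the gene's counts. It was not protein-coding for 2, LIG1 and ORC6, where the retained-intron transcript ORC6-207 held 49.3%.

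Among these 10 the transcript with most reads was RRM2-201. This protein-coding form and the intron-retaining RRM2-217 had estimates of opposite sign, while the gene sum was at 0.16. The canonical RRM2-201 had 166, 178 and 161 CPM in siPDCD4 cells, against 130, 110 and 116 CPM in siCT cells. The retained-intron RRM2-217 had 21.8, 22.8 and 14.4 CPM in siPDCD4 cells, against 43.2, 50.6 and 31.2 CPM in siCT cells. Neither pair of groups overlapped. Over all genes this held for 7.03% in the higher direction and 7.13% in the lower, and it was not counted over all transcripts. The other, scarcer retained-intron forms of RRM2 lay between -0.02 and 0.61 on the log2 scale. The log2 fold changes were 0.51 ± 0.09 (SE, edgeR adjusted p = 0.419) and -1.08 ± 0.26 (SE, edgeR adjusted p = 0.768), so neither passed the test over all transcripts. RRM2-201 held 81.5% ± 2.48 of the estimated counts of the gene in siPDCD4 cells and 66.6% ± 5.12 in siCT cells (SD, n = 3 each).

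The 2 smallest p-values belonged to transcripts of E2F8 and TYMS at low counts. TYMS-201 had 1.26, 2.13 and 1.32 CPM in siPDCD4 cells and was listed at 0 in all 3 siCT libraries, with an adjusted p of 0.371 in edgeR. E2F8-201 had 7.42, 6.54 and 6.99 CPM in siPDCD4 cells, against 4.69, 2.20 and 4.47 CPM in siCT cells, with an adjusted p of 1 in edgeR. E2F8-202 was listed at 0 in all 3 siPDCD4 libraries, against 2.70, 3.30 and 1.83 CPM in siCT cells, with an adjusted p of 0.297 in edgeR. CCNE2-201 had 34.4, 34.6 and 34.3 CPM in siPDCD4 cells and 27.0, 24.2 and 21.8 CPM in siCT cells, a log2 fold change of 0.50 ± 0.11 (SE, edgeR adjusted p = 0.566). These counts are Salmon's division of shared reads among similar transcripts and carry that estimate's error, which is not in the SE.

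The wider pathway was described by 77 more genes in 6 lists, of which 73 were tested. Of the 73, 0 passed the FDR of 5% in edgeR, 4 were at an unadjusted p under 0.05 (2 higher and 2 lower), 39 had estimates above 0 and 34 below, and the median was 0.0047. DESeq2 also called 0 of them. Groups did not overlap for 8 in the higher direction and 6 in the lower, against 7.03% and 7.13% of all genes.

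CCND2, cyclin D2, had the smallest p of these genes. It had 105, 102 and 99.1 CPM in siPDCD4 cells, against 135, 128 and 114 CPM in siCT cells, with no overlap, and a log2 fold change of -0.30 ± 0.08 (SE, edgeR adjusted p = 0.243). E2F7, the partner of E2F8 in repression, had 41.03, 39.96 and 46.97 CPM in siPDCD4 cells and 33.6, 37.2 and 37.1 CPM in siCT cells, at 0.25 ± 0.10 (log2 fold change, SE, edgeR adjusted p = 0.517) and at 0.135 without the length correction. MCM9, a relative of the MCM ring that acts in homologous recombination, was at 0.25 ± 0.10 (edgeR adjusted p = 0.529). DNMT1 had 144, 140 and 132 CPM in siPDCD4 cells, against 160, 159 and 164 CPM in siCT cells, at -0.22 ± 0.07 (edgeR adjusted p = 0.366), but at 0.0094 without the length correction.

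The brakes on the transition were read from the same lists. CDKN2A and CDKN2B, the genes of the p16 and p15 inhibitors of CDK4 and CDK6, had 0 counts in all 6 libraries. MCF10A cells are known to have lost both genes. CDKN1A, which encodes p21, had 97.3, 103.9 and 101.9 CPM in siPDCD4 cells, against 112.9, 109.6 and 112.7 CPM in siCT cells, with no overlap, and a log2 fold change of -0.15 ± 0.07 (SE, edgeR adjusted p = 0.653). The other tested CDK inhibitors were at 0.05 for CDKN1B, -0.15 for CDKN2C and -0.04 for CDKN2D, all with overlapping groups. The pocket proteins RB1, RBL1 and RBL2 were at -0.02, -0.03 and -0.08, and GMNN, geminin, which inhibits CDT1, at 0.07 ± 0.10 (SE). These genes were picked out here after their values were seen.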

How the data were processed

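Total RNA of MCF10A cells was sequenced (stranded total RNA kit, paired reads of 75 bases). The authors quantified reads with Salmon against Ensembl release 109 (GRCh38), and deposited 1 table of transcripts per library. Its version was not given in the sources used. The deposited expected counts (estimated read counts) are not whole for 36.3% to 39.2% of transcripts, and TPM, also deposited, come from that run. Per the study's methods, genes were then tested by the authors with tximport and DESeq2.

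Here 181244 of 194142 transcripts were matched by identifier to GENCODE release 44 and summed to genes. The other 12898 held 5.47% to 6.21% of counts and were not used. Rounded counts were fitted in edgeR 4.0.16 (R 4.3.3; quasi-likelihood, robust, TMM, filterByExpr, offset for average transcript length), with group as the only term. Benjamini-Hochberg adjustment ran over all genes tested, at an FDR of 5%. CPM are counts divided by the same offsets. Transcripts were fitted without the length offset. Alternatives were DESeq2 1.42.0, limma 3.58.1, other scaling, filters, thresholds, no length offset, a replicate block and leaving out libraries. Tables and figures were made with Python 3.11.15, pandas 2.3.3 and matplotlib 3.10.9.

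The members and lists were chosen with earlier results of these data known. Named genes were PDCD4, members past the FDR, the 12 members with the smallest p, in each role the highest in TPM and those with the largest and smallest log2 fold change, pathway genes past the FDR and the 4 with the smallest p, and CDKN2A and CDKN2B. Further members are named to account for the set, and the transcripts and motifs were picked after their values were seen. A value after ± is an SE for a log2 fold change and an SD for a level or share. Tests cover counting error and the spread between 3 libraries a group. One sequence comparison for LIG1 is not reported here.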

Additional observations from a re-analysis of the deposited data

How the results depend on the processing

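No member and no pathway gene was called under any alternative run, except CCNE2 without the length offset (1 member called), and the members' median stayed between 0.017 and 0.098 (main 0.04). The number of all genes called was 193 with DESeq2, 108 with no filter, 126 with no length offset and 96 at an FDR of 10%, against 56. Leaving out 1 library gave 9 to 40 genes called, namely 9 without siPDCD4_1, 19 without siPDCD4_2, 18 without siPDCD4_3, 33 without siCT_1, 19 without siCT_2 and 40 without siCT_3. Transcripts called stayed at 0 with RLE factors, no filter, the block, an FDR of 10% and each library left out, the settings run for transcripts. Chosen after seeing the data, leaving out LIG1-233 gave 56 genes called and leaving out both libraries numbered 3 gave 40, each with 0 members. With the replicate number as a block 77 genes and 0 members were called. Over all tested genes, same-numbered libraries deviated together with correlations of 0.07, 0.12 and 0.18. Each siPDCD4 library correlated best with its own number except siPDCD4_1, which did so with siCT_2 (0.10). Each siCT library correlated best with its own number. Differently numbered libraries had correlations from -0.19 to 0.10. The labels state no pairing, and whether same-numbered libraries were paired was not tested. The members were low in both libraries numbered 3. The block changed no member's call. At an unadjusted p under 0.05 in edgeR there were 6 members with the block (5 higher), against 2 in the main fit (2 higher). Without both libraries numbered 3 there were 9 (8 higher). The share of all genes at that p was 8.82% in the main fit. It was not counted in these other runs, so their counts of members are not a result about the members.

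Signs turned for the genes given here, and the cause was not tested. TK1 (-0.00011) was at 0.0025 with RLE factors, 0.016 with upper quartile factors, 0.0022 with DESeq2, 0.000402 with a minimum of 1 CPM, 0.061 without the length offset, 0.0033 with protein-coding genes only and 0.052 without both libraries numbered 3. Without the length offset DNMT1 was at 0.0094 and POLD1 at 0.16, and POLD1 was at 0.26 without both libraries numbered 3. LIG1 was at 0.16 without LIG1-233. With 1 library left out the log2 fold changes ran from -0.11 to 0.0232 for MCM7, -0.18 to 0.000636 for GINS2, -0.14 to 0.37 for POLE, -0.36 to 0.0552 for POLD1, -0.0804 to 0.0755 for TK1, -0.26 to 0.30 for LIG1, -0.0141 to 0.0536 for CCND1 and -0.0215 to 0.14 for FEN1. The other named genes kept their sign in these runs, but 1 library moved several by over 1.5 times. The ranges were 0.146 to 0.395 for GINS4, 0.24 to 0.56 for CDT1, 0.128 to 0.319 for UHRF1, 0.0747 to 0.26 for CDC6, 0.0545 to 0.27 for POLA2, 0.0512 to 0.199 for CDC45, 0.0983 to 0.222 for RRM2, -0.232 to -0.0365 for CHAF1A, -0.244 to -0.0563 for MCM3, -0.279 to -0.10 for DSCC1, -0.203 to -0.0892 for RFC2, -0.168 to -0.0597 for SLBP and -0.14 to -0.0177 for CDC25A. Without the length offset GINS4 was at 0.1445 and E2F7 at 0.135.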
